A study of Rattus norvegicus with 8 samples.

Results

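The genes described here encode G protein subunits, namely the beta subunits Gnb1, Gnb2, Gnb3, Gnb4 and Gnb5 and the alpha subunits Gnai1, Gnai2, Gnaq, Gna11 and Gnal. They were taken by name from the non-control spots of the arrays, where 10 of 35199 gene names matched, and all 10 gave a value in every rat. Total RNA came from the dentate gyrus (DG), the part of the hippocampal formation built around the granule cells, of 8 adult female Sprague-Dawley rats of 150 to 200 g at purchase. All 8 had been ovariectomized (OVX) a week before hormone treatment and all 8 went through kainic acid induced status epilepticus (SE), so both groups share the surgery and the seizures. The 4 COS rats received oil and the 4 CES rats received estradiol (E2). In the sample records the kainic acid dose is 16 mg/kg, pentobarbital stopped the seizures after 5 h, and estradiol was given as 4 doses of 2 μg at 24 h steps, of which 2 came after SE, while the study's methods give another kainic acid dose, another drug, all estradiol before SE and, in separate places, different times of tissue collection. The files do not settle which holds, so the time between SE and tissue collection is not known here. Rats without SE were not analysed here, so the values say how CES differed from COS and not how SE moved a gene. The question was whether E2 replacement left the transcripts of these signalling proteins at another level after SE.

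A heterotrimeric G protein is an alpha subunit bound to a beta-gamma dimer and sits under the membrane beneath a seven-helix receptor. An active receptor makes the alpha subunit exchange GDP for GTP, and alpha and beta-gamma then part and act on separate effectors. The Gi alpha subunits restrain adenylyl cyclase, the Gq and G11 alpha subunits switch on phospholipase C beta, and Golf, the product of Gnal, stimulates adenylyl cyclase. Free beta-gamma opens the GIRK potassium channels, which quiet hippocampal neurons.

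Each array carried 43379 non-control spots, and each channel of a 2-colour array held the RNA of 1 rat. Both rats of an array came from the same group, replicates 1 and 3 carrying Cy3 and replicates 2 and 4 carrying Cy5, so the dye was balanced between groups while array and group could not be told apart except as a random block. A level is the background-subtracted intensity of a gene relative to the median valid spot of the same channel, on the log2 scale, where a spot is valid if its foreground is at least 2 times its local background. Valid spots made up 74.6% to 88.9% of each COS channel and 70.7% to 81.5% of each CES channel, and the number of arrays limits the precision. CES replicate 2 stood apart from its group before any gene is considered. It correlated more closely over all genes with the COS rats (Pearson r 0.974 to 0.983) than with the other CES rats (0.955 to 0.964), which in turn correlated with COS at 0.933 to 0.944, and its log2 level of Fos, an immediate early gene, was 3.73 against −0.22, 0.25 and −0.15 in CES replicates 1, 3 and 4 and 4.27 to 5.82 in COS. Its label was kept. The values of the 10 genes are also given without it, and so are the counts of the gene lists where they changed. The granule cell markers C1ql2, C1ql3, Calb1 and Neurod1 were well above background in all 8 rats, whereas Prox1 and Tdo2 were not well above background in any.

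The called genes were measured through 3 probes (Gnb1), 2 probes (Gnb4) and 1 probe (Gnai2), and sequences of a probe of Gnb1 and a probe of Gnb4 that fell are shown because the probes of a gene, oligonucleotides of 60 bases, did not all behave alike. Sequences and positions are those of the array files, in rat build rn4, and no annotation of that build was used here. Gnb1 had 3 probes on the plus strand of chromosome 5. The middle one, A_44_P468365, lies at chr5:172384132-172384191. Another, A_44_P927153, lies 3189 bases downstream of it at chr5:172387381-172387440, the most 3′ position of the 3. Gnb4 had 2 probes on the minus strand of chromosome 2, A_44_P1071663 at chr2:118798950-118799009 and, 8865 bases further downstream on that strand, A_42_P816645 at chr2:118790025-118790084.
Gnb1 A_44_P468365: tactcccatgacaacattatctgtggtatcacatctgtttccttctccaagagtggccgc
Gnb4 A_44_P1071663: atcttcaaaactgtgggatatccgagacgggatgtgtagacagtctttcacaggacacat

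Of the 10 genes, Gnb1, Gnb4 and Gnai2 were lower in CES than in COS and 0 were higher (limma, Benjamini-Hochberg over all 21332 genes tested, adjusted p under 0.05). Over all genes the fit called 28.3% lower and 5.8% higher, so 3 of 10 is close to the background share. The median log2 difference, CES minus COS, was −0.23 over the 10 genes and −0.25 over all genes. Because the channel scaling places the typical gene at −0.25, the difference of each of the 10 genes is also given relative to that median. The same 3 genes were those whose 4 CES values all lay below the 4 COS values, a separation that 19.8% of all genes showed in this direction and 1.61% in the other. On dropping CES replicate 2, the same 3 genes were called lower, beside 32.7% of all genes.

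**Figure D1:**
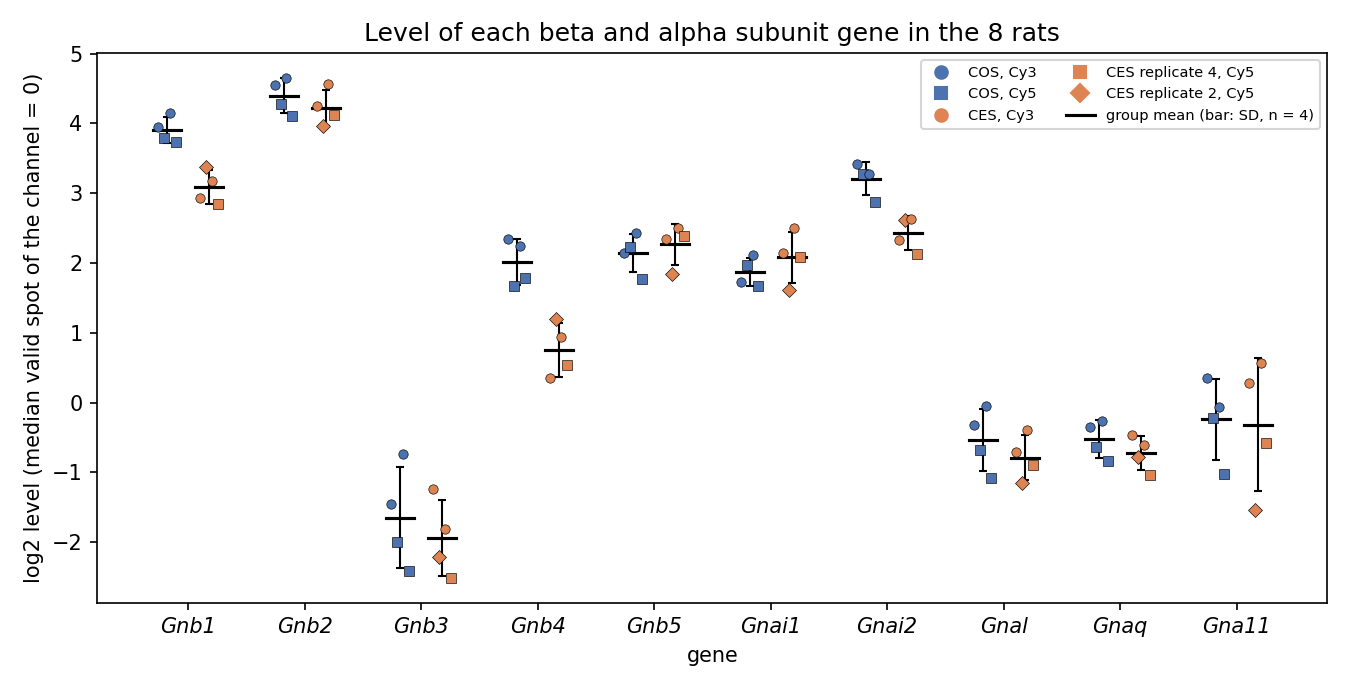
Log2 level of each gene (y axis, relative to the median valid spot of the channel) in the 4 COS and 4 CES rats, with symbols for the dye and for CES replicate 2, and group means with SD. The groups do not overlap for Gnb1, Gnb4 and Gnai2 and overlap for the other genes. Levels of different genes come from different probes and are not comparable with each other.

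Gnb1, a beta subunit found throughout the brain, whose mutations cause an encephalopathy with seizures, had log2 levels of 3.95, 3.79, 4.15 and 3.73 in COS replicates 1 to 4 and of 2.94, 3.37, 3.18 and 2.84 in CES replicates 1 to 4. Every CES rat lay below every COS rat, and CES replicate 2 was the CES rat nearest to COS. The difference was −0.82 (standard error 0.18, adjusted p = 0.00943), a level 1.77-fold lower, and with the all-gene median subtracted it was −0.57. It was −0.99 among the Cy3 rats and −0.65 among the Cy5 rats, which include CES replicate 2, and −0.96 without that rat (adjusted p = 0.00145).

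Gnb4, a beta subunit whose mutations cause a hereditary neuropathy, had the more negative difference. Its log2 levels were 2.35, 1.67, 2.24 and 1.78 in COS replicates 1 to 4 and 0.35, 1.20, 0.93 and 0.54 in CES replicates 1 to 4. The groups did not overlap, and CES replicate 2 was again the highest of its group. The difference was −1.25 (standard error 0.24, adjusted p = 0.00576), 2.38-fold lower, or −1.0 with the all-gene median subtracted, and 6.5% of all genes had a more negative difference. It was −1.65 among the Cy3 rats, −0.85 among the Cy5 rats and −1.46 without CES replicate 2 (adjusted p = 3.78e-04).

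The other beta subunits were not called. Gnb2, the close relative of Gnb1, had log2 levels between 4.11 and 4.65 in COS and between 3.95 and 4.56 in CES, with a difference of −0.18 (95% confidence interval −0.52 to 0.17, adjusted p = 0.401). Gnb5, the divergent beta subunit that pairs with RGS proteins of the R7 family in place of gamma, had levels between 1.77 and 2.43 in COS and between 1.83 and 2.50 in CES, with a difference of 0.12 (interval −0.30 to 0.55, adjusted p = 0.641). Gnb3, known from cone photoreceptors, was well above background only in the Cy5 rats, 2 of 4 in each group. Its levels ran from −2.41 to −0.74 in COS and from −2.51 to −1.24 in CES, so the spread within a group exceeded the difference of −0.29 (interval −0.79 to 0.21, adjusted p = 0.338). With the all-gene median subtracted, Gnb2 stood at 0.08, Gnb3 at −0.04 and Gnb5 at 0.38. Without CES replicate 2 the differences were −0.15 for Gnb2, −0.38 for Gnb3 and 0.24 for Gnb5, and these were not called either.

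**Figure D2:**
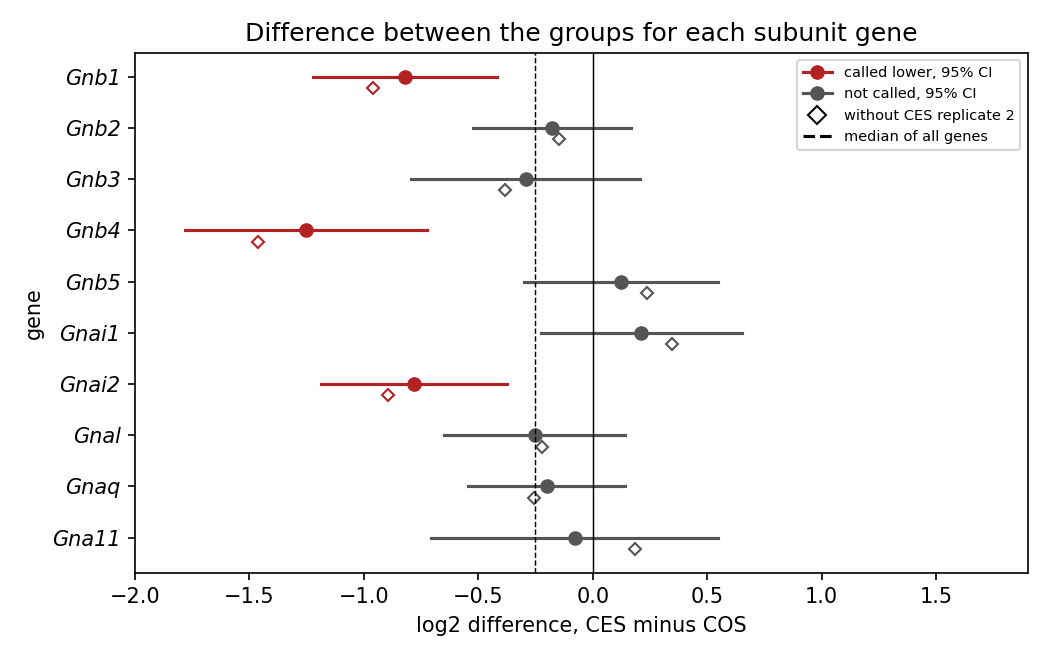
Log2 difference, CES minus COS (x axis), of each gene with its 95% confidence interval, and as open diamonds the difference without CES replicate 2. The dashed line is the median of all genes, −0.25, and the intervals of Gnb1, Gnb4 and Gnai2 lie wholly below it.

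Gnai2, a Gi alpha subunit that is abundant in immune and endothelial cells as well as in brain, was the called alpha subunit. Its log2 levels were 3.41, 3.27, 3.28 and 2.87 in COS replicates 1 to 4 and 2.34, 2.61, 2.64 and 2.12 in CES replicates 1 to 4. No CES rat reached the lowest COS rat, and CES replicate 2 lay within the range of its group. The difference was −0.78 (standard error 0.18, adjusted p = 0.0115), 1.72-fold lower, or −0.53 with the all-gene median subtracted, with −0.86 among the Cy3 rats, −0.70 among the Cy5 rats and −0.89 without CES replicate 2 (adjusted p = 0.00333).

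Gnai1, the Gi alpha subunit typical of neurons, had log2 levels of 1.73, 1.97, 2.11 and 1.67 in COS and of 2.14, 1.61, 2.50 and 2.09 in CES. The groups overlapped, and CES replicate 4 also lay below COS replicate 3. CES replicate 2 was the lowest CES rat. The difference of 0.21 (interval −0.22 to 0.65, adjusted p = 0.429) was not called, and it was 0.35 without that rat (adjusted p = 0.168). With the all-gene median subtracted, Gnai1 stood at 0.47.

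The alpha subunits that act on phospholipase C beta were not called. Gnaq had levels between −0.84 and −0.26 in COS and between −1.04 and −0.46 in CES, with a difference of −0.20 (interval −0.54 to 0.14, adjusted p = 0.334), and 3 rats of each group showed it well above background. Gna11 varied more between rats, from −1.02 to 0.35 in COS and from −1.54 to 0.57 in CES, and the low end of CES was replicate 2. Its difference was −0.08 (interval −0.71 to 0.55, adjusted p = 0.850) and 0.19 without that rat (adjusted p = 0.551), and without COS replicate 2 it was 0.15, so its sign was not settled. Gnal, the alpha subunit of olfactory and striatal dopamine signalling, had levels of −0.33, −0.68, −0.05 and −1.08 in COS and of −0.71, −1.16, −0.39 and −0.90 in CES. Its difference of −0.25 (interval −0.65 to 0.14, adjusted p = 0.292) equalled the median of all genes, and its 2 probes on chromosome 18 gave −0.17 and −0.29. The first of these was well above background only in the Cy5 rats. The difference was −0.26 for Gnaq and −0.22 for Gnal without CES replicate 2, not called.

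The single probes of Gnb1 differed from each other. The probe fit tested 25698 probes and called 29% lower and 5.48% higher. The most 5′ probe of Gnb1 had log2 levels of 3.97, 3.74, 4.13 and 3.79 in COS and of 2.37, 3.26, 2.70 and 2.37 in CES, so that the groups differed by −1.23 (standard error 0.23, adjusted p = 0.00517) or 2.35-fold. The middle probe, A_44_P468365, had 4.59, 4.38, 4.79 and 4.34 in COS and 3.34, 4.04, 3.51 and 3.20 in CES, or −1.01 between the groups (standard error 0.22, adjusted p = 0.00833). In both, the groups did not overlap and CES replicate 2 was the CES rat closest to COS.

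The most 3′ probe of Gnb1, A_44_P927153, did not fall. Its log2 levels were 2.72, 2.83, 2.98 and 2.50 in COS and 2.94, 2.34, 3.22 and 2.83 in CES, a difference of 0.08 (interval −0.34 to 0.50, adjusted p = 0.774). It was well above background in all 8 rats, so the signal was not at the floor of the assay. Without CES replicate 2 the 3 probes stood at −1.47, −1.23 and 0.21 in order from 5′ to 3′.

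The 3′ probe minus the 5′ probe of Gnb1, taken within each rat, was −1.25, −0.91, −1.16 and −1.29 in COS replicates 1 to 4 and 0.57, −0.92, 0.53 and 0.46 in CES replicates 1 to 4. CES replicates 1, 3 and 4 lay above the COS range, and CES replicate 2 lay within it. Such a within-rat value does not depend on how a channel is scaled. The probe differences of Gnb1 spread over 1.31, against a median spread of 0.30 over the 3525 genes with 2 or more probes, and 97% of these genes had a smaller spread.

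For Gnb4 both probes fell, the more 3′ one less. The probe A_44_P1071663 had log2 levels of 1.71, 1.16, 1.88 and 1.12 in COS and of −0.99, 0.22, −0.15 and −0.47 in CES, which is −1.82 between the groups (standard error 0.29, adjusted p = 0.00382) or 3.52-fold. It was well above background in all COS rats and in 3 of 4 CES rats. The probe A_42_P816645 had 2.79, 2.05, 2.52 and 2.24 in COS and 1.03, 1.78, 1.54 and 1.13 in CES, or −1.03 between the groups (standard error 0.23, adjusted p = 0.00936). Within a rat, the 3′ probe minus the 5′ probe was 1.08, 0.88, 0.64 and 1.12 in COS and 2.02, 1.56, 1.69 and 1.60 in CES, and here CES replicate 2 lay with its group. The groups did not overlap in this measure, and the spread of 0.79 between the probe differences exceeded that of 88.8% of genes with 2 or more probes.

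**Figure D3:**
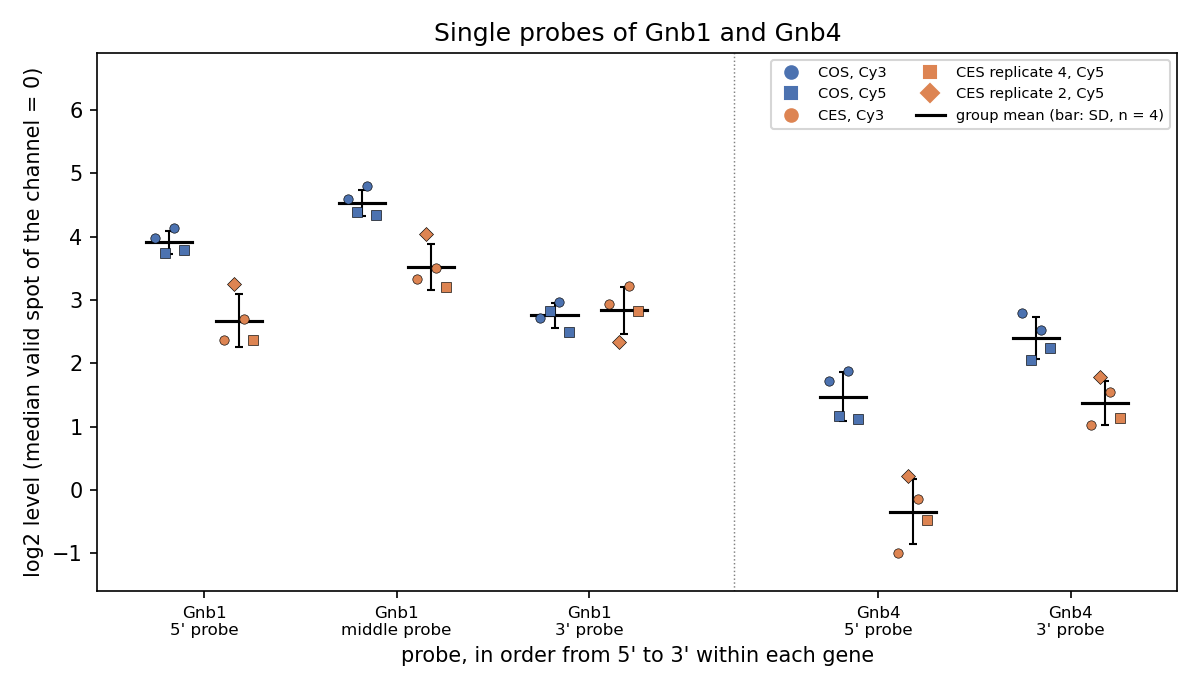
Log2 level (y axis) of the 3 probes of Gnb1 and the 2 probes of Gnb4 in each rat, ordered from 5′ to 3′ within a gene, with group means and SD. The CES rats lie below the COS rats for 4 of the probes and overlap with them for the most 3′ probe of Gnb1.

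The same measure was taken over all genes that had probes at least 100 bases apart on the same chromosome and strand. Over 3293 such genes the median of the 3′ probe minus the 5′ probe averaged 1.52 ± 0.11 over the 4 COS rats and 1.58 ± 0.12 over the 4 CES rats (SD, two-sided exact permutation test p = 0.514). Its change from COS to CES was smaller than that of Gnb1 in 98.8% of the genes and smaller than that of Gnb4 in 94.5%. The permutation test shuffled single rats and left out the array. The cause of the difference between probes was not tested.

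Differences between members within a rat do not depend on the scale of a channel, and 12 pairs were compared by two-sided exact permutation tests, adjusted over the pairs. The tests shuffled single rats and left out the array, although both rats of an array came from the same group. Their p-values may therefore be too small. For 5 pairs the COS and CES rats did not overlap, at an exact permutation p = 0.0286, the smallest that 4 rats against 4 allow, and at an adjusted p of 0.0686. Gnb1 minus Gnb5 went from 1.76 ± 0.17 (SD, n = 4) in COS to 0.82 ± 0.49 (SD, n = 4) in CES, and Gnb4 minus Gnb5 from −0.13 ± 0.33 to −1.51 ± 0.61. Gnai1 minus Gnai2 went from −1.34 ± 0.23 to −0.34 ± 0.44. The CES mean exceeded the COS mean by 1.08 for Gnb2 minus Gnb4 and by 0.43 for Gnb1 minus Gnb4, and the latter value was 0.02 with the brightest probe of each gene, which leaves out both outer probes of Gnb1 and the 5′ probe of Gnb4. Gnb1 minus Gnb2 had a group difference of −0.64 (exact permutation p = 0.0571, adjusted p = 0.114), and Gnaq minus Gna11 one of −0.12 (exact permutation p = 0.800, adjusted p = 0.800). These became −0.83 and −0.51 without CES replicate 2, where no pair passed the adjustment.

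The subunits and effectors that work with these genes moved in both directions. Of 54 named partner genes 50 were on the array and 42 were quantified, and 13 of these were lower and 6 higher in CES by the fit over all genes, beside 28.3% and 5.8% of all genes. Their median difference was −0.18, against −0.25 over all genes. When the scale of a channel was set on spots valid in every rat, 4 were called lower and 12 higher. Of all genes 8.1% and 15.7% were then called, so the split depended on the scaling. Without CES replicate 2 the counts were 14 lower and 7 higher, beside 32.7% and 8.7% of all genes. Without COS replicate 3 they were 2 and 2, beside 4.3% and 1.2%.

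Among the other alpha subunits 6 were quantified, 2 of them called lower and 1 higher, beside 28.3% and 5.8% of all genes. Gnai3, the third Gi alpha gene, went from 3.59 ± 0.28 (SD, n = 4) to 2.73 ± 0.23 (SD, n = 4), a difference of −0.86 (standard error 0.19, adjusted p = 0.00976), and every CES rat lay below every COS rat. Gnas, the stimulatory Gs alpha gene, had −0.51 (standard error 0.17, adjusted p = 0.0454), which is −0.26 against the all-gene median. Gna14, of the Gq family, went the other way with 1.15 (standard error 0.25, adjusted p = 0.00888), and its level in CES replicate 2 was 1.45 against a CES mean of 2.18.

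Of the gamma subunits, which form the dimer with beta, 10 were quantified, 3 of them called lower, near the background share of 28.3%, and 3 higher, beside 5.8% of all genes. Without CES replicate 2 the counts were 3 and 4, and without COS replicate 3 they were 0 and 0, with 3 and 4 at an unadjusted p under 0.05. Of all genes, 32.7% and 8.7% were called without CES replicate 2 and 4.3% and 1.2% without COS replicate 3. Gng11 had a difference of −1.25, Gng12 −1.13 and Gng5 −0.94, all with non-overlapping groups (adjusted p = 0.00961, 0.00534 and 0.0161). Gng8 had 0.88, Gng3 0.64 and Gng4 0.55 (adjusted p = 0.0097, 0.035 and 0.0434), with overlapping groups.

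Of the RGS proteins that bind Gnb5, 4 were quantified and 1 was called lower, beside 28.3% of all genes. Rgs7 went from 4.17 ± 0.19 (SD, n = 4) to 3.51 ± 0.14 (SD, n = 4), a difference of −0.67 (standard error 0.17, adjusted p = 0.0155), while Gnb5 itself was not called. The list had 2 called lower without CES replicate 2, beside 32.7% of all genes. Rgs6, Rgs9 and Rgs11 had −0.18, 0.02 and −0.50 and were not called.

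The genes of the remaining lists are named here after their values were seen. Chaperones and regulators that load or assemble the subunits had 7 quantified members, of which 5 were called lower and 0 higher, beside 28.3% and 5.8% of all genes, with a median difference of −0.97. The count was 5 without CES replicate 2, 2 without COS replicate 3 and 2 with a scale set on spots valid in every rat. In this order 32.7%, 4.3% and 8.1% of all genes were called lower. They were Ric8b, the chaperone of Gs and Golf alpha subunits, with −0.99, Pdcl, which helps assemble beta with gamma, with −0.63, the related Pdcl3 with −0.97, and Gpsm1 and Gpsm3, which hold Gi alpha in its GDP form, with −1.02 and −1.21. Ric8b was well above background in 3 COS rats and 1 CES rat. Among 8 adenylyl cyclases Adcy4 was called lower (−2.08). Among 3 phospholipase C beta genes Plcb3 was called lower (−1.02) and Plcb1 higher (0.85). Among 4 GIRK channel genes Kcnj6 was called higher (1.24). Adcy4 and Plcb3 did not pass a filter for spots well above background in every rat. Under that filter 0 of 7 adenylyl cyclases were lower and 1 higher, and 0 of 2 phospholipase C beta genes were lower and 1 higher. Of all genes that passed it, 39.3% were called lower and 9.2% higher.

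**Figure D4:**
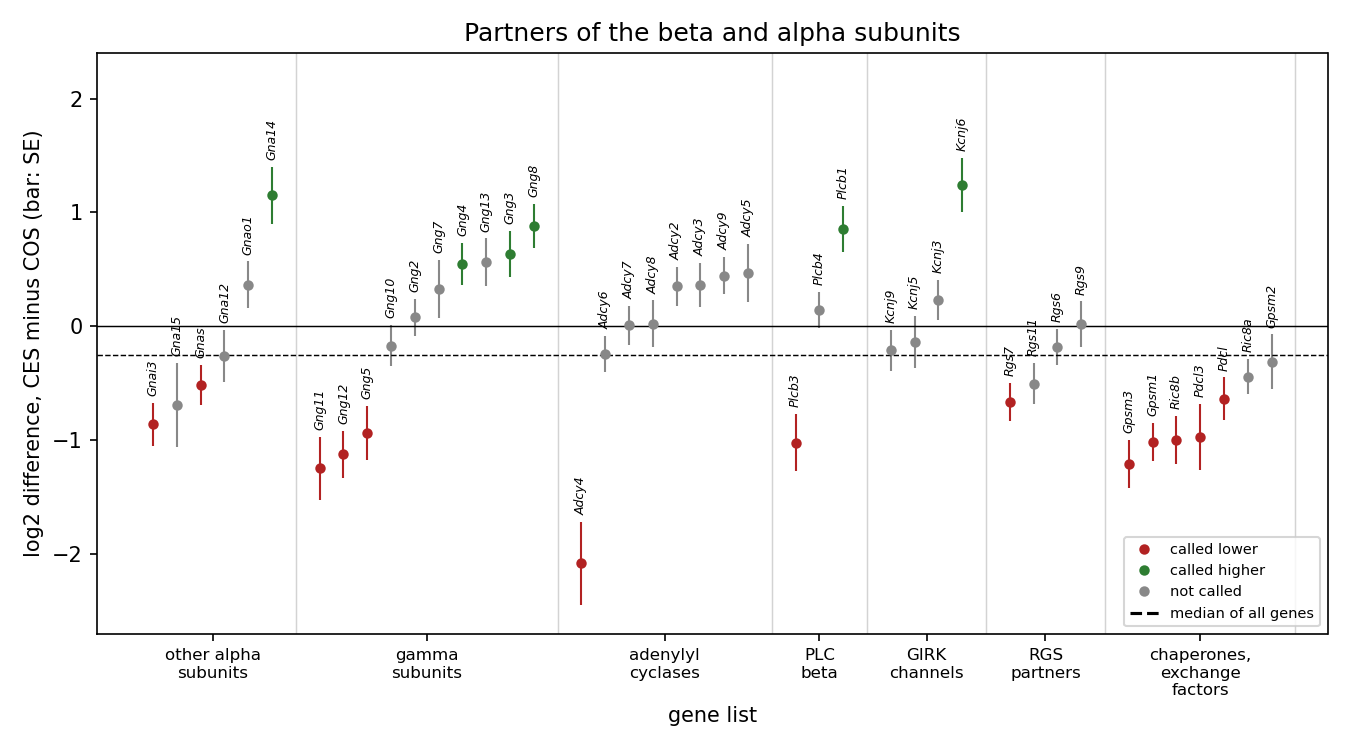
Log2 difference, CES minus COS (y axis, bars are standard errors), of the 42 quantified partner genes by list, coloured by the call. Called genes lie on both sides of 0 among the gamma subunits, and the 5 called chaperones and exchange factors lie below it.

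Markers of other cells were read beside these genes, and in bulk tissue fewer cells of a type and less RNA per cell cannot be told apart. The counts of called markers stand against 28.3% lower and 5.8% higher of all genes. Without CES replicate 2 these shares were 32.7% and 8.7%, and with only spots well above background in every rat 39.3% and 9.2%. No list was tested against these shares. The summed level of 6 microglia and macrophage markers, relative to the median valid spot, was 33.8 to 51.1 in COS and 24.9 to 35.1 in CES, with 3 of 6 called lower and 1 higher. Cd68 (−2.19), Itgam (−1.92) and Csf1r (−0.92) were lower and P2ry12 (0.93) was higher, while Aif1 and Cx3cr1 were not called. The summed level of 5 endothelial markers was 34.6 to 53.9 in COS and 18.4 to 35.3 in CES, with 3 lower. Pecam1 was not well above background in any rat, and Flt1, called lower, was so in 2 of 4 CES rats. With only spots well above background in every rat, 3 endothelial markers remained, 2 of them lower. Interneuron markers summed to 344 to 554 in COS and 100 to 303 in CES, or 100 to 156 without CES replicate 2, with 3 of 6 lower. These were the neuropeptide genes Npy, Sst and Vip, while Gad1, Gad2 and Pvalb had differences of −0.57, −0.58 and 0.51 and were not called. All 6 were called on dropping CES replicate 2, 5 lower and 1 higher. The same counts arose with that rat kept and only spots well above background in every rat, so this contrast depended on the setting. The sums are on the linear scale, and Npy and Sst made up most of the interneuron sum in every rat. The granule cell markers had 3 of 6 lower, namely C1ql2, Dsp and Tdo2, and 1 higher. Dsp and Tdo2 did not pass a filter for spots well above background in every rat. Under that filter 4 granule cell markers remained, 1 lower and 1 higher. Without CES replicate 2 the endothelial sum reached 26.2 in CES and the microglia sum was as before, and 4 markers of each list were called lower. Astrocyte markers had 2 of 6 higher, Aldh1l1 (1.23) and Gja1 (1.27), while Gfap had −1.19 and was not called. Pyramidal and mossy cell markers had 1 of 7 lower and 3 higher, and striatal markers 1 of 4 lower. Oligodendrocyte and choroid plexus markers had 0 of 6 and 0 of 5 called. On dropping CES replicate 2, the lower and higher counts were 1 and 2 for astrocyte and 1 and 4 for pyramidal and mossy cell markers. They were then 2 and 1 for striatal and 0 and 1 for oligodendrocyte markers. The part of cell composition in the differences of Gnb1, Gnb4 and Gnai2 was not tested.

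The direction of the 3 called genes was the same under all 24 alternatives, whereas their calls were not. With the all-gene median of the same setting subtracted, the difference ran from −0.75 to −0.47 for Gnb1, from −1.19 to −0.73 for Gnb4 and from −0.62 to −0.43 for Gnai2. They were called under 18, 20 and 14 of the 24 alternatives. Leaving out COS replicate 3 alone ended all 3 calls (adjusted p = 0.0717, 0.0604 and 0.0729). With that rat left out, 4.3% of all genes were called lower.

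**Figure D5:**
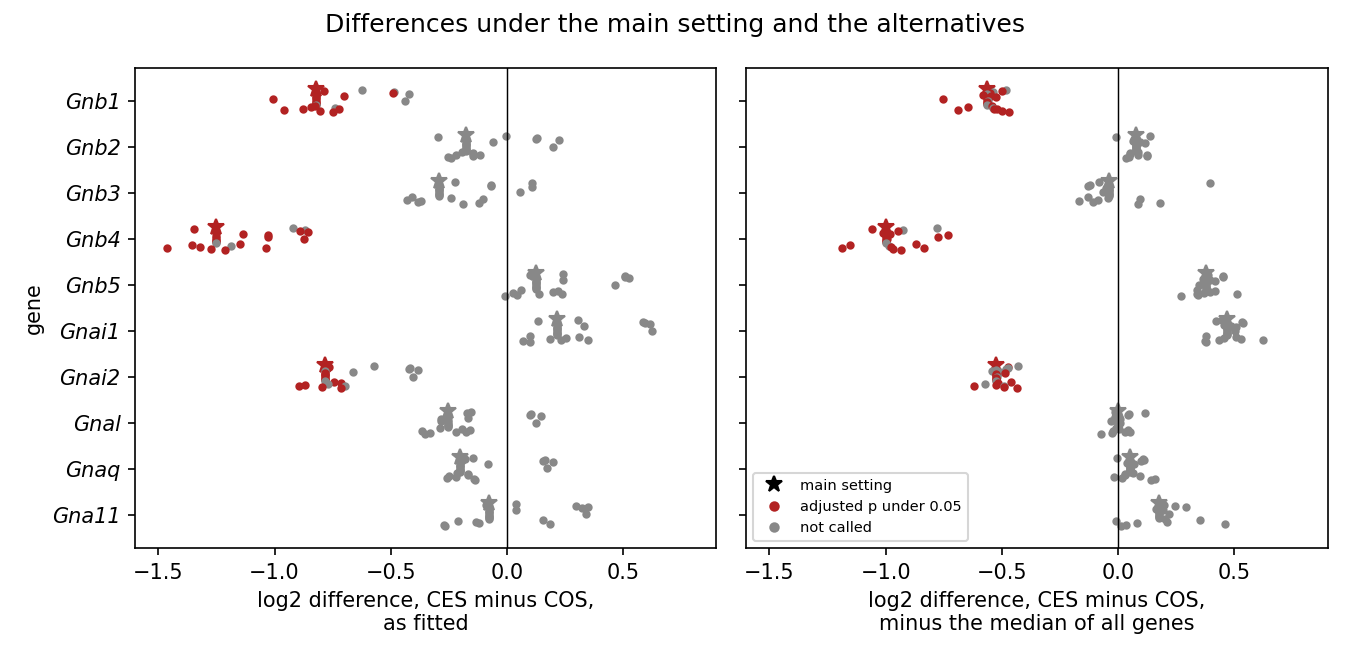
Log2 difference, CES minus COS, of each gene under the main setting and every alternative, as fitted (left) and minus the median of all genes under the same setting (right). Gnb1, Gnb4 and Gnai2 stay below 0 in both panels, and Gnb5 and Gnai1 stay above 0 in the right panel.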

How the data were processed

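Deposited scanner files give, per the file headers, the mean and median intensity of each spot and its local background for both dyes as extracted by Agilent Feature Extraction 10.7.3.1, without further normalization by the authors. A deposited table of log2 values of the same channels served as an alternative. Groups, replicate numbers and dyes follow the sample labels. Following the study's methods, each spot's mean signal less its background median was scaled to the median valid spot of its label in the array. Values were averaged over the spots of a gene name valid in all 8 rats, which held for 27642 spots and 21332 gene names, and taken to log2. The authors' later renormalization across conditions was not repeated, since it needs the rats without SE. No spot of the 10 genes was saturated or marked as an outlier.

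The groups were compared with limma 3.58.1 in R 4.3.3, two-sided, with a dye term and a random array block (statmod 1.5.0, correlation −0.0064), Benjamini-Hochberg adjustment over all genes and a threshold of 0.05. The median standard error was 0.20. The pipeline was tested on simulated data. Position along a transcript was the order of the midpoints of the files' coordinates. The sequence and position of the most 5′ probe of Gnb1 are not reported here. Figures were drawn with matplotlib 3.10.9 in Python 3.11.15.

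All 10 genes are named with values, partner genes singly where they pair with one of them, and others by counts. The genes and lists were chosen with earlier results of these data known. Deviations from the group means of same-numbered COS and CES rats correlated at 0.21 to 0.34, and the pairing is that of the dye, since same-numbered rats carry the same label, with −0.06 and −0.04 once the dye mean was removed.

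Alternatives covered the background correction, the processed signal, 3 normalizations, filters, outlier marks, probe choice, names through RefSeq (17512 of 41012 probes matched), blocks, the dye term, the methods' t-test, the deposited log2 table and each rat left out.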

Additional observations from a re-analysis of the deposited data

How the results depend on the processing

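Scaling turned the split between lower and higher calls, while normexp, the t-test and the loss of COS replicate 3 took away most calls. The all-gene median difference of −0.25 became 0.06 with loess and Aquantile, 0.06 with quantile normalization, 0.15 with a scale set on spots valid in every rat and 0.12 with the deposited log2 table. Of the calls over all genes, 83% were lower in the main setting (6038 lower and 1238 higher), and under these 4 settings in the same order 38.3%, 42.1%, 33.9% and 37%, with 1892, 2221, 1718 and 1927 lower and 3042, 3055, 3348 and 3275 higher. They called 0, 2, 1 and 1 of the 10 genes lower, and 5, 6, 4 and 5 partner genes lower with 12 higher under each. Of the 10 genes, 2 were called at a stricter foreground of 3 times background, with 2828 genes lower in all and 8 partner genes lower, and 2 without a filter, with 2696 lower, 404 higher and 6 partner genes lower. Normexp called 461 genes lower and 125 higher, 0 of the 10 genes and 0 partner genes in either direction. The methods' t-test gave 6103 genes at an unadjusted p under 0.05, the threshold of the methods, there joined by a fold cut-off that was not computed here, with 3 of the 10 genes lower, and after the Benjamini-Hochberg adjustment added here it called 0 genes in either direction. With each rat left out in turn, between 914 and 7012 genes were called lower and between 257 and 1855 higher, between 0 and 3 of the 10 genes, and between 2 and 16 partner genes lower and 2 and 7 higher, the lowest counts without COS replicate 3.

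With the replicate number as a block (replicate block) 6131 genes were lower and 1076 higher, 3 of the 10 genes lower, and 12 partner genes lower and 4 higher, and no call among the 10 genes changed.

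Signs turned only for values that were never called. With loess, quantile, valid-spot scaling and the deposited table in this order, Gnb2 was at 0.13, 0.13, 0.22 and 0.20, Gnal at 0.10, 0.10, 0.15 and 0.13, Gnaq at 0.16, 0.15, 0.20 and 0.17 and Gna11 at 0.30, 0.35, 0.32 and 0.34. Gnb3 was at 0.11 with valid-spot scaling, 0.054 with the deposited table and 0.11 with the processed signal. Gna11 was at 0.038 with normexp and 0.040 at the stricter foreground, and from −0.27 to 0.19 with each rat left out, over 0 without COS replicate 2 or CES replicate 2. With each rat left out Gnb5 ran from −0.0074, without CES replicate 4, to 0.24, and with the 4 scalings it reached 0.52. The change in Gnb2 minus Gnb3 was −0.40 with the processed signal and −0.11 to 0.34 with each rat left out, that in Gnb3 minus Gnb5 0.0094 with the processed signal, and that in Gnaq minus Gna11 −0.51 to 0.14 with each rat left out. With spots well above background in every rat Gnb3, Gnaq and Gna11 were not quantified. At the stricter foreground Gnb3 was not quantified and 5 pairs passed the adjustment (adjusted p = 0.0457). Their changes were the same as in the main setting, and the adjustment then ran over 8 pairs in place of 12, so this is not added evidence. The causes of the turned signs were not tested. The single probes of Gnb1, Gnb4 and Gnal without CES replicate 2 were examined after seeing the data, as were the counts by list and the marker sums under other settings.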
